A study of Mus musculus with 2 samples.

Results

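A group of 7 genes, taken by symbol, was followed in the uterine stroma: the transcription factor genes Hand2, Cebpb and Foxo1, the receptor genes Prlr and Il13ra2, the gap junction gene Gja1 and the phosphatase gene Alpl. They are 7 of the 32285 genes in the deposited tables, named for their links with decidual readiness. They were chosen with earlier results of these data known. Single cells were captured by 10x droplets from mouse uterus at gestational day 3.5 in 2 libraries, each standing alone in its group, so no replicates exist. The control was Mig-6f/f, which carries floxed Mig-6 alleles and no Cre. The library labelled knockout was Pgrcre/+ Mig-6f/f, in which Cre is driven from the progesterone receptor gene and acts in cells that have used that gene, in stroma and epithelium alike. Both therefore carry the floxed alleles, and no age is given. Uteri had been dissociated with trypsin, and a dead cell removal kit had been used against blood cells.

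Stromal barcodes were those with at least 10 UMIs (unique molecular identifiers, each a captured RNA molecule) of Dcn, Col1a2 and Col3a1 together per 10000 UMIs and under 5 of Epcam, Krt8, Krt18 and Cldn7. The control had 3219 among 4303 kept barcodes (74.8%), and the library labelled knockout 1046 among 2881 (36.3%). Mesenchymal genes outside that rule were present in both. Pdgfra stood at 173 and 182 CPM (UMIs of the gene per 1000000 UMIs of the class) and Hoxa11 at 139.8 and 132. Median depth was 8881 UMIs per control stromal barcode and 3639.5 in the library labelled knockout, so shares of positive barcodes are also given after each barcode was thinned at random to 2000 UMIs. Just 3 barcode sequences occurred in both libraries, and none of them was stromal in both. Errfi1, the gene that encodes Mig-6, went against the label in stroma, with 197 CPM in the control and 734 in the library labelled knockout (ratio 3.72, 95% interval 3.56 to 3.89). In epithelial barcodes it stood at 575 and 514. Which exons are floxed is not given in the labels, and reads outside the deleted part would not test the label.

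Decidualization is the progesterone-driven conversion of endometrial stromal fibroblasts into the secretory cells that surround the implanting embryo. HAND2 is a stromal basic helix-loop-helix factor induced by progesterone, which holds down fibroblast growth factor signalling to the epithelium. C/EBPβ and FOXO1 are transcription factors that act with the progesterone receptor in decidual cells. PRLR binds prolactin and placental lactogens and signals through JAK2 and STAT5. IL13RA2 binds interleukin 13 with high affinity and is mostly described as a decoy that limits the signal. GJA1 is connexin 43, which couples stromal cells through gap junctions. ALPL is tissue-nonspecific alkaline phosphatase, whose activity is a classical histochemical sign of decidual cells in the mouse.

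The upstream sequences of Prlr and Il13ra2, the receptor genes that differed in opposite directions, are shown for their letters only. Each run is the 250 bases before an annotated start, 5′ to 3′ on the gene's strand, from RefSeq on GRCm38.p6, and capitals mark the motif matches. Prlr lies on chromosome 15 on the plus strand and has 3 annotated starts, and Il13ra2 lies on chromosome X on the minus strand.
Prlr start 1, chr15:10176988-10177237: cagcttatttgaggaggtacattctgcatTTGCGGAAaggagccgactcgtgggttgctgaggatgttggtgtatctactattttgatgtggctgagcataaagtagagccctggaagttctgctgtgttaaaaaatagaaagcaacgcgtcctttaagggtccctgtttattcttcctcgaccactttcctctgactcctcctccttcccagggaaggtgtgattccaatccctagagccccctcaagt
Prlr start 2, chr15:10223656-10223905: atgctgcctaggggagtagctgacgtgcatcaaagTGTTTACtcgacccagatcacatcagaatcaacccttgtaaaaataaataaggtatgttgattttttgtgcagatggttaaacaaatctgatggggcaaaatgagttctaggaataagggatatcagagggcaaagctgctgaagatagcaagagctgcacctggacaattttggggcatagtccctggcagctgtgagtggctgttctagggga
Il13ra2, chrX:147429193-147429442: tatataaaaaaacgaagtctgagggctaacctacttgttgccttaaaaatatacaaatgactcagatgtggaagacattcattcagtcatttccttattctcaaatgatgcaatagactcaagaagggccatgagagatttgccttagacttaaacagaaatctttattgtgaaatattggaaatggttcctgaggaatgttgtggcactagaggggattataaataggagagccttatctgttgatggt

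The C/EBP motif TTGCNNAA was found at the first Prlr start, with its first base at -221, and at the third, at -121. The FOXO motif TGTTTAC was found at the second Prlr start, with its first base at -215. Positions are counted back from the start, and both strands were searched. The steroid receptor palindrome was found at no start of the 7 genes, and Il13ra2, like the other members apart from Prlr, held none of the 3 motifs in its window. All 7 genes matched the RefSeq table, with 10 starts between them. Among all 32851 windows of that length, 9.56% held the C/EBP motif, 3.17% the FOXO motif and 0.387% the palindrome. A match of letters is a description and not a site of binding.

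Across the stroma, Prlr and Alpl were at least 2-fold higher in the library labelled knockout and Il13ra2 at least 2-fold lower, while Hand2, Cebpb, Foxo1 and Gja1 stayed within 2-fold. Of 14456 genes with at least 20 stromal UMIs, 5.53% were at least 2-fold higher and 12.8% at least 2-fold lower. The 2 higher and 1 lower of 7 members are to be read against those shares. Alpl, with 16 control UMIs and 28 in the library labelled knockout, passed the limit of 20 only through the library where it was higher. The median log2 ratio was 0.81 over the 7 members and -0.05 over all 14456 genes. Levels in CPM are given with exact Poisson 95% intervals, and ratios with exact conditional 95% intervals. Both kinds reflect counting error alone. No test was possible with a single library on each side, and every difference is one between these libraries.

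**Figure D1:**
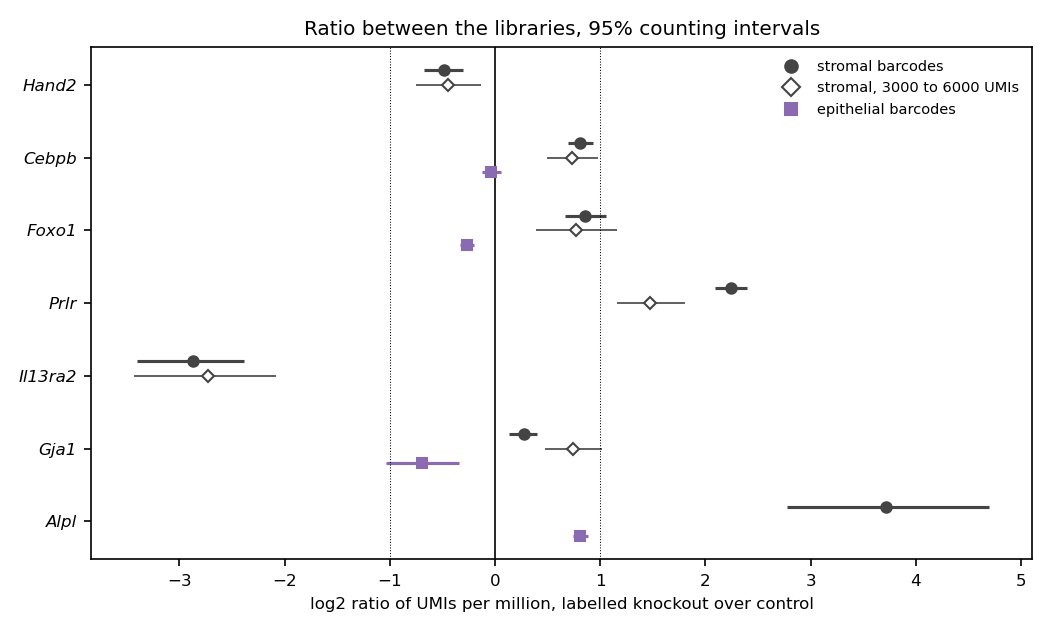
Ratio of CPM in the library labelled knockout over the control on a log2 scale (x axis) for each gene (y axis), in stromal barcodes, in stromal barcodes of 3000 to 6000 UMIs and in epithelial barcodes. Horizontal lines are exact 95% counting intervals, the dotted lines mark 2-fold, and a class with under 20 UMIs of a gene, or a control at 0, is not drawn. Prlr sits at 2.25 and Il13ra2 at -2.87 in stroma, and Foxo1 and Gja1 lie on opposite sides of 0 in stroma and epithelium.

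Hand2 was the only transcription factor member lower in the library labelled knockout. Its stromal level was 95.6 CPM in the control (92.1 to 99.2, 2816 UMIs) and 68.2 in the library labelled knockout (60.3 to 76.9, 268 UMIs). The intervals did not overlap, and the level was 1.40-fold lower (1.24 to 1.59). Before thinning, 52.1% and 21.9% of stromal barcodes held a Hand2 UMI. At 2000 UMIs per barcode the shares were 17.1% (15.8 to 18.5) and 12.0% (10.0 to 14.3). Epithelial barcodes held a Hand2 UMI in 0.823% of cases in the control and 0.208% in the library labelled knockout, at median depths of 11664 and 9294 UMIs. In the control Hand2 was spread over many cells, since the 5% of stromal barcodes with most of it held 22.4% of its UMIs. In the library labelled knockout, at lower depth, the top 5% held 34.3%.

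Cebpb was higher in the stroma labelled knockout. It stood at 104 CPM in the control (101 to 108, 3078 UMIs) and 183 in the library labelled knockout (170.1 to 197, 720 UMIs), a ratio of 1.75 (1.62 to 1.90). The unthinned shares of positive barcodes ran the other way, at 44.98% and 41.7%. At equal depth they were 17.1% (15.8 to 18.5) and 29.7% (26.8 to 32.7), in the order of the levels. No class lacked Cebpb. Its smallest share was in endothelial barcodes, with 14.0% and 16.7% at median depths of 5815 and 2176.5 UMIs. Immediate-early and heat shock genes that respond to dissociation were mostly higher as well. Their summed stromal level was 5894 and 7913 CPM, and 16 of 18 had a ratio above 1. Their median log2 ratio was 0.50, beside -0.05 over all genes. Egr1 (2.77) and Ier3 (2.01) were past 2-fold, where 5.53% of all genes were at least 2-fold higher. Among the heat shock genes, Hspa1a (1.09) and Hspa1b (0.988) were near 1, and Hspb1 (1.28) and Dnajb1 (1.74) were higher. The part of dissociation in the Cebpb difference was not tested.

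Foxo1 was likewise higher in the stroma labelled knockout, at 38.3 CPM in the control (36.1 to 40.6, 1129 UMIs) and 69.5 in the library labelled knockout (61.5 to 78.2, 273 UMIs). The intervals stood apart and the ratio was 1.81 (1.58 to 2.07). At equal depth 6.55% (5.72 to 7.46) and 11.8% (9.81 to 14.0) of stromal barcodes held a Foxo1 UMI, against 23.8% and 20.2% unthinned. Its smallest shares outside stroma were in mural barcodes, with 18.2% and 16.0% at median depths of 5372.5 and 2218 UMIs.

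Prlr showed the largest ratio among members with over 100 UMIs in both libraries. The control stroma held 30.9 CPM (28.9 to 33.0, 911 UMIs) and that of the library labelled knockout 147 (135 to 159, 577 UMIs). The level was 4.75-fold higher (4.27 to 5.28) in the library labelled knockout. Of stromal barcodes, 12.6% and 24.3% held a Prlr UMI unthinned, and 4.42% (3.73 to 5.19) and 17.9% (15.5 to 20.5) at 2000 UMIs. Over 20 further thinning draws the control share was 4.70% to 5.30%, above that of this first draw. Epithelial barcodes held one in 0.960% and 0.694% of cases.

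UMIs of the receptor were unevenly spread over barcodes, at a depth where a barcode with none may still hold its RNA. In the control, the 5% of stromal barcodes with most Prlr held 69.5% of its UMIs, and in the library labelled knockout 51.6%. Positive barcodes carried a mean of 2.25 and 2.27 UMIs at unequal depth, with maxima of 14 and 13. The ratio also moved with depth. Among stromal barcodes of 3000 to 6000 UMIs (397 control and 653 labelled knockout) the levels were 53.5 and 149 CPM, a ratio of 2.78 (2.24 to 3.49).

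Il13ra2 was the one member that was much lower. The control stroma held 63.3 CPM (60.5 to 66.3, 1866 UMIs) and that of the library labelled knockout 8.65 (5.99 to 12.1, 34 UMIs). The level was 7.32-fold lower (5.22 to 10.6) in the library labelled knockout. Unthinned, 31.3% and 2.87% of stromal barcodes held an Il13ra2 UMI. At 2000 UMIs the shares were 10.5% (9.49 to 11.6) and 1.60% (0.896 to 2.62). Epithelial barcodes held one in 0.412% of control cases. In the library labelled knockout 0 of 1440 did, which allows a share of up to 0.208% (3 counts). Of the positive stromal barcodes in the library labelled knockout, 27 had a single UMI and 1 had 3.

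Gja1 had the ratio nearest 1 in all stromal barcodes, though not at matched depth. It stood at 113 CPM in control stroma (109.7 to 117, 3344 UMIs) and 137 in the library labelled knockout (126 to 149, 538 UMIs), a ratio of 1.21 (1.10 to 1.32). Between 3000 and 6000 UMIs the levels were 84.5 and 142, with a ratio of 1.68 (1.39 to 2.03), beside 1.66 for Cebpb and 1.36-fold lower for Hand2. The shares at 2000 UMIs were 17.3% (16.0 to 18.6) and 21.0% (18.4 to 23.7), with overlapping intervals, and 47.7% and 32.6% unthinned. Immune barcodes held a Gja1 UMI in 2.42% of control cases and in 0 of 195 in the library labelled knockout, which allows up to 1.54% (3 counts), at median depths of 5525 and 1741 UMIs.

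**Figure D2:**
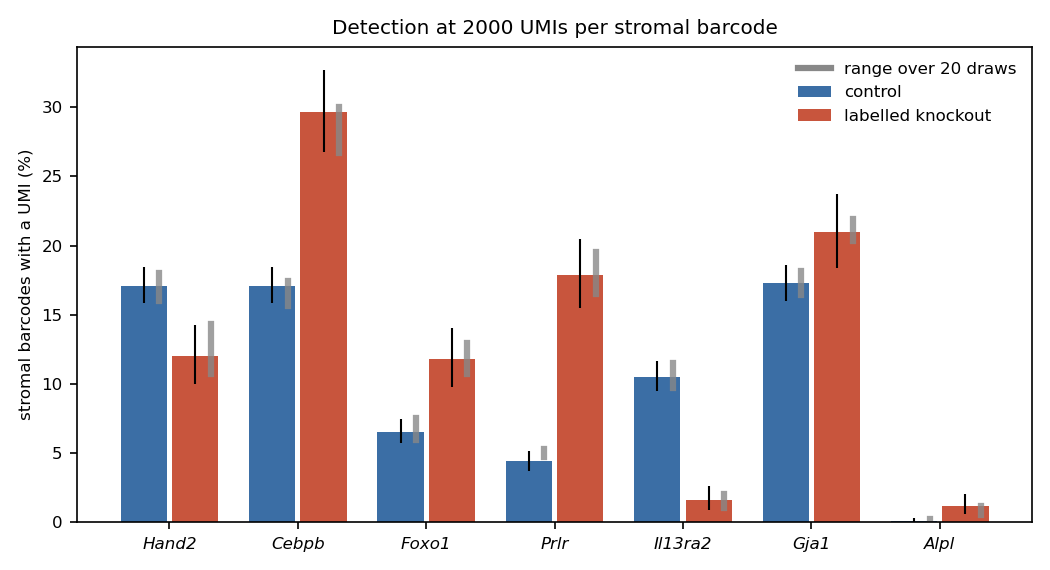
Share of stromal barcodes with at least 1 UMI of each gene after thinning to 2000 UMIs (y axis, percent), for 3191 control barcodes and 940 barcodes labelled knockout. Black lines are exact 95% binomial intervals and grey lines the range over 20 thinning draws. Prlr goes from 4.42% to 17.9% and Il13ra2 from 10.5% to 1.60%. The 20 draws gave 4.70% to 5.30% for Prlr in the control, above the bar.

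Alpl was scarce in stroma at this time point. It had 16 UMIs in control stroma (0.543 CPM, 0.310 to 0.882) and 28 in the library labelled knockout (7.13 CPM, 4.73 to 10.3), a ratio of 13.1 (6.86 to 26.0). A UMI was seen in 15 control stromal barcodes (0.466%), 14 of them with a single UMI, and in 17 barcodes (1.63%) of the library labelled knockout, 13 of them with a single UMI and 3 with 3 or more. At 2000 UMIs the shares were 0.125% and 1.17%. Immune barcodes held one in 0.606% and 1.03%, and mural barcodes in 2.27% and 2.13%. The mural shares rest on 1 and 2 barcodes, and their intervals overlapped the stromal ones. No expression is read from the stromal shares.

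The estimated share of free epithelial RNA also differed between the libraries, though not alike for each gene. Over 7 epithelial genes outside the rule (Wfdc2, Krt7, Cdh1, Krt19, Ehf, Elf3 and Cldn4), a set without Cldn3, the median stromal level was 0.527% of the library's level in the control and 0.819% in the library labelled knockout. Those shares of the whole library's Alpl would give 0.264 and 2.23 CPM in stroma, beside the observed 0.543 and 7.13. With them subtracted, the Alpl ratio was 17.5. Wfdc2, the most abundant of the 7, stood at 8.32 and 39.2 CPM in stroma, or 0.704% and 0.819% of the library's level. That share was lower in the library labelled knockout for Ehf (0.527% and 0.332%) and 0.849% in both for Elf3. It was higher there for the others. The part of free RNA in the Alpl difference was not tested. Cldn3 ran the other way, at 42.2 and 1.53 CPM. Of the Alpl-positive stromal barcodes, 0 of 15 control barcodes and 3 of 17 barcodes labelled knockout also held a UMI of the 4 epithelial rule genes, against 4.65% and 7.09% of Alpl-negative ones. For the other 7 epithelial genes the shares were 13.3% with Alpl and 8.68% without in the control, and 17.6% and 17.3% among barcodes labelled knockout.

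Levels outside the stroma separated the 7 genes into stromal and shared ones, and here the data went against the stromal label for Alpl and Foxo1. Alpl was an epithelial gene in these libraries. Epithelial barcodes (729 and 1440) held 197 CPM in the control and 346 in the library labelled knockout. The ratio was 1.75 (1.67 to 1.84), and 74.5% and 81.5% of them were positive. Among epithelial barcodes with gland markers (98 and 65) it stood at 96.5 and 204. Endothelial barcodes (57 and 42) held 0 UMIs.

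Foxo1 was highest in endothelial barcodes, at 357 CPM (305 to 416) in the control and 497 (379 to 640.1) in the library labelled knockout. Epithelial barcodes followed in the control at 323 (312 to 334) and in the library labelled knockout at 268 (260.2 to 276), with immune barcodes (165 and 195) at 173 and 247. The intervals of endothelial and epithelial barcodes overlapped in the control, and those of epithelial and immune barcodes overlapped in the library labelled knockout. Stroma was lowest in both libraries, and its intervals overlapped those of mural barcodes, at 64.3 (36.7 to 104) and 81.4 (49.0 to 127). In epithelium the ratio was 0.830 (0.794 to 0.868), below 1 where the stromal ratio was above 1. Within epithelium it was 0.783 without gland markers and 1.37 with them.

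Cebpb was also shared. Its level was 242 and 280 CPM in immune barcodes, 193 and 300 in mural barcodes (44 and 94), and 149.7 and 146 in epithelium, where the ratio was 0.977 (0.917 to 1.04). The intervals of immune and mural barcodes overlapped in both libraries. Gja1 was highest in control endothelium, at 257 (213 to 308), against 182 (114 to 276) in the library labelled knockout. In epithelium it stood at 13.3 and 8.21, a ratio of 0.619 (0.487 to 0.787). Of the 13380 genes measured in epithelium, 5.17% were at least 2-fold higher and 14.9% at least 2-fold lower. Of the 7 members, 4 had enough epithelial UMIs to be compared (Cebpb, Foxo1, Gja1 and Alpl), and none was past 2-fold.

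Hand2, Prlr and Il13ra2 were mesenchymal. Endothelial barcodes (57 and 42) and immune barcodes (165 and 195) held 0 UMIs of each in both libraries. These classes are small, and Il13ra2 stood at only 8.65 CPM in stroma labelled knockout. For Il13ra2 in that library, 0 UMIs in these classes therefore do not show a lower level than in stroma. Mural barcodes, named by a sum of pericyte and smooth muscle genes that includes Des, held Hand2 at 96.4 CPM (61.8 to 143) in the control. In the library labelled knockout the level was 72.8 (42.4 to 117), and both overlap the stromal intervals. Des was also abundant in stromal barcodes (419 and 752 CPM), and mural barcodes held Pdgfra (40.2 and 85.7 CPM) and Hoxa11 (64.3 and 90.0 CPM). Whether mural barcodes include stromal cells that missed the stromal rule was not tested. Prlr in mural barcodes was at 0 UMIs in the control and 167 CPM (119 to 228, 39 UMIs) in the library labelled knockout. Against a floor of 3 control UMIs it was at least 13.9-fold higher. Il13ra2 in mural barcodes went the other way, at 36.1 CPM (9 UMIs) and 0 UMIs. The direction of both receptors in mural barcodes was thus that of stroma, on few cells.

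**Figure D3:**
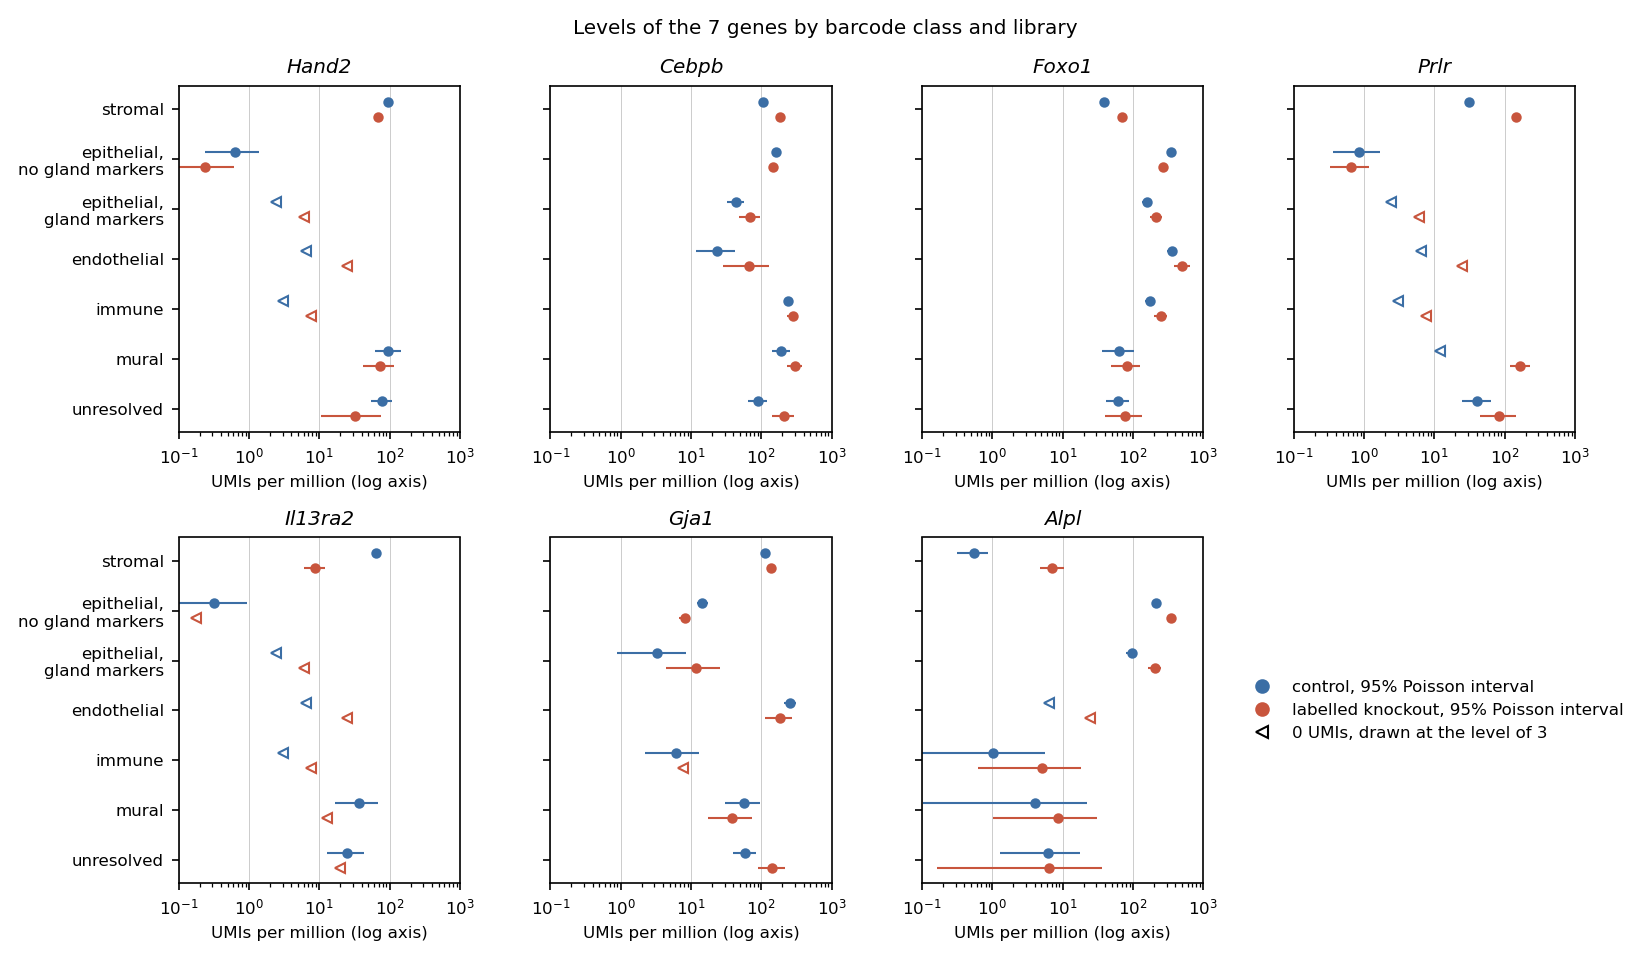
CPM (x axis, log scale) of each gene in 7 barcode classes (y axis) of the control and the library labelled knockout, with exact 95% Poisson intervals, and open triangles at the level of 3 UMIs where none was seen. Hand2, Prlr and Il13ra2 are near 0 in epithelial barcodes and have 0 UMIs in endothelial and immune barcodes. Alpl is at 197 and 346 CPM in all epithelial barcodes together against 0.543 and 7.13 in stroma.

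Co-detection asks whether the genes occur in the same stromal cells. At 2000 UMIs, 15.5% (14.3 to 16.8) of control stromal barcodes and 23.6% (20.9 to 26.5) of those labelled knockout held at least 2 of the 7 genes. Without thinning the order was reversed, at 66.7% and 43.8%, at median depths of 8881 and 3639.5 UMIs. In the control 1470 of 3191 thinned barcodes held none and 13 held 4. Of 940 barcodes labelled knockout 320 held none and 5 held 4. A barcode with 5 or more was not seen in either. These shares rise with the share of each gene alone, and shares built from the single genes were not set beside them. They therefore do not show whether the genes occur together more often in either library.

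In the control, Gja1 was found more often in barcodes with Prlr or Il13ra2 than in those without. It was detected in 31.2% (23.7 to 39.5) of the 141 Prlr-positive and 16.6% (15.3 to 18.0) of the Prlr-negative thinned barcodes. It was detected in 28.0% (23.2 to 33.1) of Il13ra2-positive and 16.0% (14.7 to 17.4) of Il13ra2-negative ones. At 1000 UMIs the Prlr shares stood apart, at 20.6% (13.4 to 29.5) and 9.41% (8.40 to 10.5), and the Il13ra2 shares did not, at 10.9% (6.66 to 16.4) and 9.72% (8.69 to 10.8). Over 20 further thinning draws to 2000 UMIs of the same barcodes, Gja1 occurred in 26.3% to 36.7% of Prlr-positive and 15.7% to 17.7% of Prlr-negative barcodes. For Il13ra2-positive barcodes the draws gave 19.8% to 26.2%, under the first draw's value, against 15.7% to 17.4%. Il13ra2 itself occurred in 14.3% to 24.2% of Prlr-positive and 9.30% to 11.1% of Prlr-negative barcodes over the draws, while the first draw's intervals overlapped (10.6 to 23.5 and 9.21 to 11.4).

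For Cebpb, 3 of the pairs run over the draws had ranges apart, and these were named after their values were seen. In the control Il13ra2 was found in 5.23% to 9.60% of Cebpb-positive and 10.2% to 12.3% of Cebpb-negative barcodes over the draws. Cebpb was found in 10.7% to 15.8% of Hand2-positive and 16.3% to 18.0% of Hand2-negative barcodes. In the library labelled knockout Prlr was found in 11.9% to 16.7% of Cebpb-positive and 17.1% to 21.1% of Cebpb-negative barcodes. The first draw's intervals overlapped for each of these pairs. Other member pairs of Cebpb run over the draws overlapped, such as Hand2 and Cebpb in the library labelled knockout (19.8% to 30.2% and 26.7% to 30.2%).

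The Prlr and Gja1 pair did not stand apart in the library labelled knockout. Gja1 occurred there in 22.6% (16.5 to 29.7) of the 168 Prlr-positive and 20.6% (17.8 to 23.6) of the Prlr-negative barcodes, with overlapping intervals, and the difference between the libraries was not tested. Il13ra2 was found in 15 thinned barcodes of that library, too few to describe its partners. Hand2 and Foxo1 did not stand apart in either library, with Foxo1 in 4.83% to 8.33% of Hand2-positive and 6.23% to 7.73% of Hand2-negative control barcodes.

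**Figure D4:**
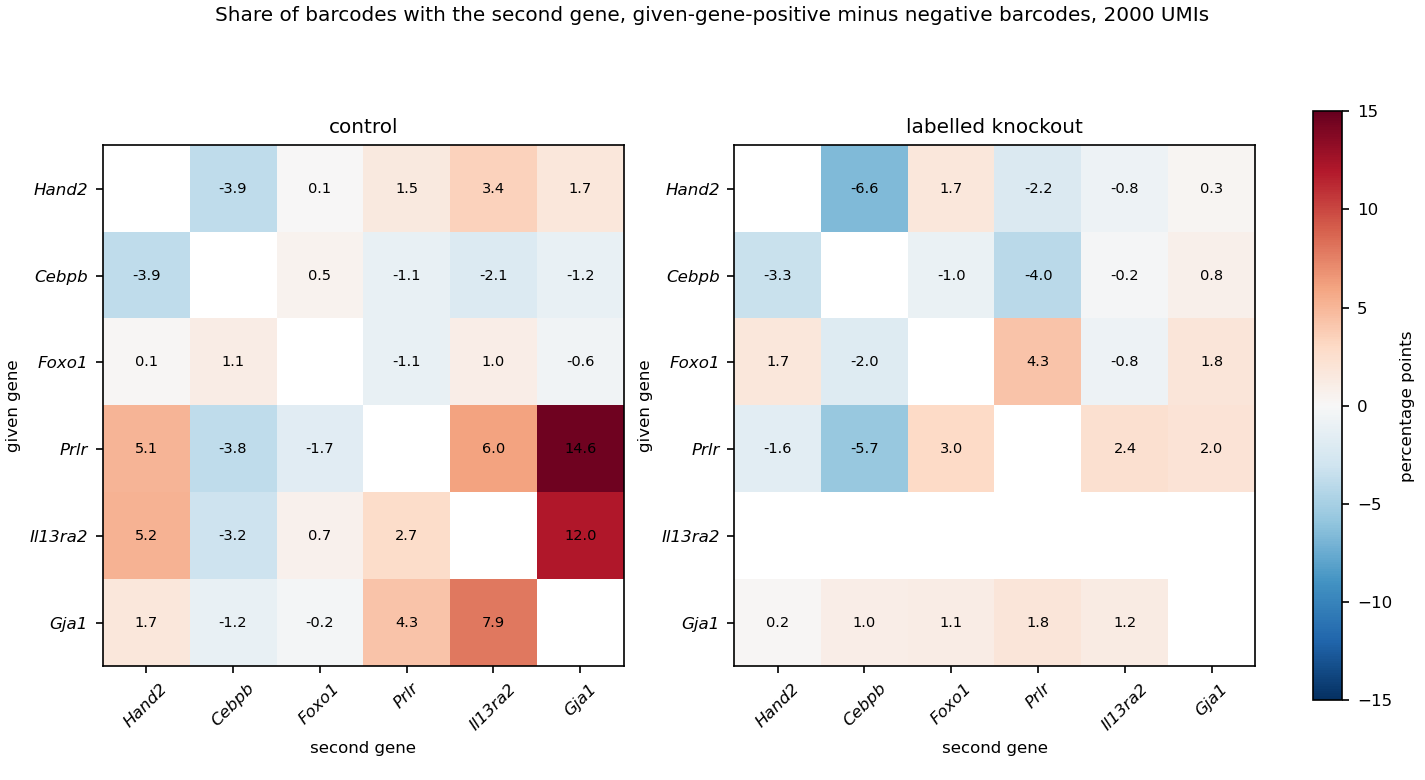
Difference in percentage points between the share of given-gene-positive and given-gene-negative stromal barcodes that hold the second gene, at 2000 UMIs, for 6 genes in the control (left) and the library labelled knockout (right). Rows with under 50 positive barcodes and Alpl are left out. In this first draw the cells for Prlr and Gja1 (31.2% against 16.6%) and Il13ra2 and Gja1 (28.0% against 16.0%) are strongest in the control. Over 20 further draws the second pair's medians were 23.8% and 16.6%. Those for Il13ra2 in Prlr-positive and Prlr-negative barcodes were 20.1% and 10.2%.

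Within the stroma Prlr, Il13ra2 and Gja1 varied with other stromal genes. Ranges over the draws reflect the thinning alone and not the sampling of barcodes. Barcodes with Dpt, Igfbp6 or Lum, matrix genes of fibroblasts, made up a median of 77.0% of thinned control stromal barcodes and 72.6% of those labelled knockout over the draws. In the control they held Prlr in 3.49% to 3.84% of cases against 7.97% to 10.8% of barcodes without these genes. Il13ra2 was found in 7.53% to 9.89% against 14.4% to 18.2%, and Gja1 in 15.3% to 17.2% against 19.0% to 23.8%. In the library labelled knockout Prlr showed the same order, with 12.2% to 15.7% against 23.6% to 30%.

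Barcodes with Robo2 or Hoxa11os showed the opposite order for the same 3 genes. In the control Prlr was found in 5.51% to 6.42% with them and 2.88% to 3.96% without. Il13ra2 was found in 12.3% to 14.5% with them and 4.74% to 7.75% without. Gja1 stood at 18.0% to 20.4% and 13.1% to 15.9%. Cebpb ran against them, at 13.1% to 15.9% with Robo2 or Hoxa11os and 17.9% to 22.3% without. Prlr kept this order in the library labelled knockout, at 20.3% to 25.2% and 10.8% to 15.7%. The first draw's intervals overlapped for Prlr in the control (4.11 to 6.06 and 2.40 to 4.57). They also overlapped for Prlr in the library labelled knockout (17.1 to 24.7 and 12.1 to 18.7) and for Cebpb in the control (14.3 to 17.5 and 17.1 to 21.7). For Il13ra2 and Gja1 in the control they stood apart.

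Cebpb went with chemokine genes in both libraries. In the control it was found in 24.0% to 31.9% of barcodes with the chemokine genes Ccl2 or Cxcl1 and in 14.8% to 16.4% of those without. Among barcodes labelled knockout it was found in 29.3% to 40% with them and 22.4% to 27.2% without. With the decidual signals Wnt4, Bmp2 or Inhbb it was found in 19.7% to 30.7% of control barcodes, against 14.9% to 17.0% without. The share of barcodes with Wnt4, Bmp2 or Inhbb itself was a median of 6.77% in the control and 31.5% in the library labelled knockout. That with Ccl2 or Cxcl1 was 7.79% and 30.9%. These gene groups were chosen with earlier results of these data known, so their shares are a description. In the library labelled knockout Cebpb was found in 25.2% to 33.0% with Wnt4, Bmp2 or Inhbb and 25.9% to 29.97% without, ranges that overlap. Over the draws Prlr in the control was found in 1.17% to 3.67% with Ccl2 or Cxcl1 and 4.85% to 5.50% without. The first draw's intervals overlapped (1.15 to 5.77 and 3.83 to 5.37), with Prlr in 7 of 246 barcodes that held Ccl2 or Cxcl1.

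**Figure D5:**
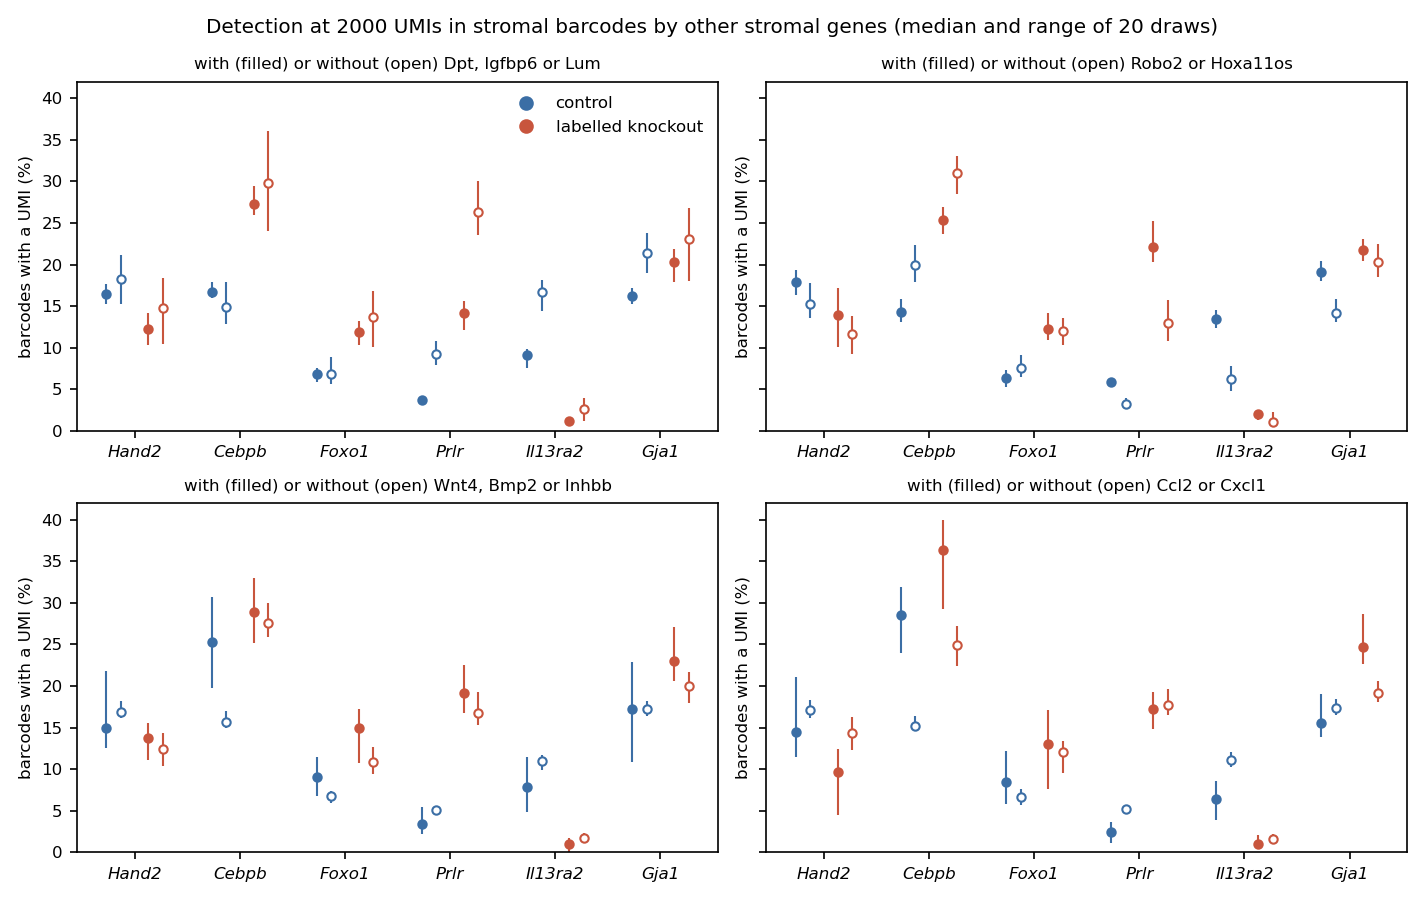
Share of stromal barcodes with a UMI of each gene at 2000 UMIs (y axis, percent) in barcodes with (filled) and without (open) each of 4 groups of stromal genes, for the control and the library labelled knockout. Points are medians and lines the range of 20 thinning draws of the same barcodes. In the control, Prlr is at 3.49% to 3.84% with Dpt, Igfbp6 or Lum and 7.97% to 10.8% without.

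Genes of decidualization outside the 7 were also compared in stroma. Of 32 listed, 30 had at least 20 UMIs, of which 8 were at least 2-fold higher, 3 at least 2-fold lower and 19 within 2-fold, with a median log2 ratio of 0.42 beside -0.05 over all genes. The shares past 2-fold were 26.7% higher and 10.0% lower, beside 5.53% and 12.8% of all genes. The lists were chosen with earlier results of these data known, and Wnt4, Bmp2 and Inhbb are among the higher genes here. The shares are therefore a description and no independent sample. Inhbb, a subunit of activin B, was 13.3-fold higher (11.5 to 15.4), at 9.71 and 129 CPM. Wnt4, a decidual signal, was 4.54-fold higher (3.65 to 5.63) and Epas1, a hypoxia-inducible factor, 3.19-fold higher (2.50 to 4.03). Fkbp5, a progesterone-induced co-chaperone, was 3.01-fold lower (2.37 to 3.88).

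In the first draw 12 of 210 pairs of a member and a decidualization or PRLR signalling gene had control intervals apart, and 3 of 204 did among barcodes labelled knockout. Dio2 was among the former, the deiodinase that activates thyroid hormone, at 75.1 and 182 CPM in stroma. Over the draws in the control it was found in 21.0% to 30.3% of Prlr-positive and 9.01% to 10.8% of Prlr-negative barcodes. For Il13ra2 the shares were 15.4% to 23.3% and 9.03% to 10.5%, and for Gja1 13.9% to 20.7% and 8.32% to 10.1%. For Hand2 they overlapped, at 10.6% to 14.6% and 9.62% to 11.2%. Prlr-positive and Prlr-negative barcodes of the library labelled knockout overlapped, at 24.4% to 33.9% and 23.2% to 27.5%. Htra1, a secreted protease, was there found in 76.2% to 83.1% of Prlr-positive and 68.4% to 73.6% of Prlr-negative barcodes, while in the control the ranges overlapped (47.3% to 66.3% and 55.5% to 58.3%). Zbtb16, a progesterone-induced repressor, ran against Cebpb in both libraries, with 19.6% to 25.5% against 32.3% to 34.5% in the control. In the library labelled knockout the ranges were 12.6% to 19.1% and 21.4% to 26.8%, while the first draw's intervals overlapped. Dio2 and these pairs were named after their values were seen.

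Over 6 lists of partners and relatives, 3 of 30 measured genes were at least 2-fold higher (10.0%) and 1 lower (3.33%), beside 5.53% and 12.8% of all genes. Of 7 genes of PRLR signalling, Socs2, a feedback target of STAT5, was 2.23-fold higher (84.5 against 37.8 CPM) and the other 6 were within 2-fold. Cish, another STAT5 target, was at 6.18 and 4.33 CPM. Of 6 listed IL-4 and IL-13 receptor genes 3 were measured, and Il4ra, the signalling chain shared by both cytokines, was 2.64-fold higher while Il13ra1 and Stat6 were within 2-fold. Among 7 relatives of C/EBP and FOXO, Cebpg was 2.24-fold higher, and Cebpd and Foxo3 had ratios of 0.821 and 0.803.

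Of 7 HAND2 partners and fibroblast growth factors, Fgf7 was 2.65-fold lower (18.2 and 6.87 CPM) and 6 were within 2-fold, among them Fgf10 at 46.9 and 28.8. Fgf2 had a ratio of 1.59 and the E protein gene Tcf12, whose product pairs with such factors, 0.819. Of 9 connexin and junction genes 2 were measured, Gjc1 (0.737) and Tjp1 (1.24), both within 2-fold. The 4 measured genes of phosphate handling were all within 2-fold. Of the epithelial genes outside the rule 5 were measured, and Krt19, Krt7, Cdh1 and Wfdc2 were past 2-fold higher. Cldn3 was lower, at 42.2 and 1.53 CPM.

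Likeness was described over 10 points, 5 barcode classes in each library with at least 50 barcodes, as Pearson's r of log2(CPM + 10) among 11716 genes. The points share libraries and depth, so r is a description. Whether the counting used strand is not stated, so reads of Sox5os4 or Hoxa11os and of the genes they overlap cannot be told apart. Hand2 was most like Hoxd11 (0.999) and Nkd1 (0.999), and Prlr was most like Sox5os4 (0.998) and Tmem229a (0.996). Il13ra2 was most like Slc47a2 (0.999) and Gm44691 (0.998). Gja1 went with Rspo3 (0.989) and Usp31 (0.989). Cebpb was most like Slc7a1 (0.966) and the heat shock gene Dnajb1 (0.966), and Foxo1 like Tes (0.975) and Tuba4a (0.964). The pattern of Alpl was most like that of Cblc (0.994) and Itgb6 (0.990), the latter an integrin subunit of epithelia.

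Markers of other cells were checked in the stromal barcodes. Endothelial markers (5 genes, none at 0) summed to 53.1 CPM in control stroma and 19.3 in the library labelled knockout, with 0 to 30.5 and 0 to 9.08 per 10000 UMIs in single barcodes, and immune markers (6 genes, none at 0) to 1.90 and 9.16, with 0 to 11.2 and 0 to 29.6. Mural markers (6 genes, of which Mylk4 was at 0 in both libraries) summed to 474 and 780, of which Des alone gave 419 and 752. At 5 per 10000 UMIs they marked 29.9% and 60.9% of stromal barcodes. With Rgs5, Cspg4 and Myh11 alone the shares were 2.33% and 1.34%. Without barcodes carrying mural, endothelial or immune markers, Des included, Il13ra2 was 11.4-fold lower (1443 and 9 UMIs) and Prlr 4.59-fold higher. With Des, Notch3 and Mylk4 left out of that filter, which then marked few barcodes, they were 7.31-fold lower and 4.75-fold higher. The part of mural cells was not tested further.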

How the data were processed

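The deposited matrices hold whole-number counts of UMIs per gene and barcode. Their headers name Cell Ranger 7.0.1, so the authors' counting was done with it, per the file headers. Per the submitters' processing notes, Seurat (version not given) and the build mm39 were also used. The libraries held 44871170 UMIs over 4627 barcodes (control) and 23317904 over 3118 (labelled knockout). No authors' cell annotation was used here.

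A barcode needed 500 genes or more and no more than 15% mitochondrial UMIs, and the highest Scrublet scores (scanpy 1.11.5), 0.8% per 1000 barcodes, were removed as doublets (159 and 70), leaving 4303 and 2881. Barcodes outside both rules were classed as endothelial, immune or mural at 5 marker UMIs per 10000, otherwise as unresolved (61 and 51). Those meeting the stromal and the epithelial rule (28 and 13) were left out. Counts were summed per class and scaled to the class total. Ratio, share and sum intervals are exact 95% intervals (scipy 1.17.1). Only the ratio intervals were tested on simulated data, with Poisson counts, so uneven spread over barcodes was not covered. Thinning to 2000 UMIs left out 28 and 106 stromal barcodes (0.870% and 10.1%), and 20 further draws gave the ranges. The alternatives covered filters, stromal limits, depth, marker barcodes, scaling, free RNA and the fold threshold.

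Named genes were the 7 members, from each list up to 4 genes past 2-fold ranked by the 95% bound nearest 1, and 2 genes per member with the most similar pattern. Other list genes are named with their values, chosen after those were seen. The members and lists were chosen with earlier results of these data known. Promoter sequences came from RefSeq on GRCm38.p6, another build than the files', so no coordinates of the files were used.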

Additional observations from a re-analysis of the deposited data

Results flagged for a closer look

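Among the 7 genes, Foxo1 and Gja1 had ratios (labelled knockout over control) on opposite sides of 1 in stroma and in epithelium. The ratio of Foxo1 was 1.81 in stromal and 0.830 in epithelial barcodes, and that of Gja1 was 1.21 in stromal and 0.619 in epithelial barcodes. With 1 library per group, the difference between the classes was not tested.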

How the results depend on the processing

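All 7 genes kept their direction in stroma under each of 11 alternatives (10 for Alpl). The counts of 2 genes at least 2-fold higher and 1 lower stayed the same in number, except that a threshold of 1.5-fold gave 4 higher. The median log2 ratio over the 7 genes was 0.66 with a stromal limit of 30 per 10000, against 0.81. The share of stromal barcodes with at least 2 of the genes was 5.51% and 6.90% when thinned to 1000 UMIs, 66.7% and 43.8% when not thinned, and 16.9% and 26.6% without mural, endothelial or immune marker barcodes, in the order control and labelled knockout. The cause of these moves was not tested, apart from the lower depth in the first. The Prlr ratio ranged from 2.78 (3000 to 6000 UMIs) to 5.75 (thinned, first draw). Il13ra2 ranged from 6.64-fold to 11.4-fold lower and Gja1 from 1.19 to 1.68. Alpl ranged from 12.1 to 21.1 (without mural, endothelial or immune marker barcodes, 12 and 18 UMIs). Between 3000 and 6000 UMIs Alpl had 0 control and 21 labelled knockout UMIs, at least 4.92-fold higher against a floor of 3 control UMIs, and gave no ratio. Scaling by the median ratio of all genes, which was 0.988, kept each direction. The filter on Rgs5, Cspg4, Myh11, endothelial or immune barcodes and the 20 draws were chosen after seeing the data. No paired analysis was possible because each group has 1 library. Depth limits Alpl and Il13ra2 in the library labelled knockout, with 28 and 34 stromal UMIs.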
